A study of Mus musculus with 4 samples.

Results

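9 pluripotency-associated genes, Utf1, Zfp42, Lin28a, L1td1, Fbxo15, Tdh, Jam2, Pecam1 and Mras, were followed in mouse embryonic stem (ES) cells given short hairpin RNAs (shRNAs). They were picked by name, and a probe belonged to a gene when the array annotation gave it that symbol, with the older symbol Lin28 read as Lin28a. Of the 9 genes, 8 had a probe, with 13 probes in all out of 25697 on the array, and Tdh was not analysed here. All 13 probes passed the filter on dim probes, as did 11591 of the array, so that 8 of the 8248 genes tested belong to the group. To pass, a probe needed a detection p below 0.01 throughout the 4 arrays of 1 hairpin group or more.

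The cells, labelled E14 and kept in normal ES cell conditions, were transfected by lipofection with hairpins against GFP as the control, against Esrrb, against Sox2, or against both factors at once (here the dual knockdown). All 4 groups were selected with puromycin for 2 days, so the control cells carry a hairpin and the selection too, and total RNA was hybridised to 1-colour Illumina bead arrays. Each group has 4 arrays, lettered A to D. The labels do not say whether these come from separate transfections, so the spread behind each p-value is that of arrays and could be purely technical.

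Utf1 encodes a chromatin-associated protein and Zfp42 (also called Rex1) a zinc finger protein, and both genes are used as markers of undifferentiated ES cells. Lin28a and L1td1 encode RNA-binding proteins, the first of which blocks the maturation of let-7 microRNAs, while the second carries a domain derived from a LINE-1 element. Fbxo15 encodes an F-box protein, the substrate-binding part of an SCF ubiquitin ligase, and Tdh encodes threonine dehydrogenase, a mitochondrial enzyme that feeds glycine to one-carbon metabolism in mouse ES cells. Jam2 and Pecam1 encode adhesion molecules of the immunoglobulin superfamily, and Mras encodes a small GTPase that joins Shoc2 and a protein phosphatase in a complex acting on Raf kinases. Pecam1 is best known from endothelium, platelets and leukocytes, and is also found on the surface of mouse ES cells. Of the targeted factors, Esrrb belongs to the nuclear receptors without a known natural ligand, Sox2 binds DNA together with Oct4, and enhancers of Utf1 and Fbxo15 are textbook sites of that pair.

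Promoter sequences of 5 of the 9 genes were at hand from RefSeq (build GRCm38.p6), each running from 250 bases before to 50 bases after the transcription start. The promoters of Zfp42 and Utf1 are shown because these genes fell in all 3 knockdowns with the closest profiles within the group. Each is written 5′ to 3′ along its gene, Zfp42 from the minus strand of chr8:43306960-43307259 and Utf1 from the plus strand of chr7:139943606-139943905. Capitals mark the only match to a searched motif, the octamer ATGCAAAT read on the opposite strand.
Zfp42: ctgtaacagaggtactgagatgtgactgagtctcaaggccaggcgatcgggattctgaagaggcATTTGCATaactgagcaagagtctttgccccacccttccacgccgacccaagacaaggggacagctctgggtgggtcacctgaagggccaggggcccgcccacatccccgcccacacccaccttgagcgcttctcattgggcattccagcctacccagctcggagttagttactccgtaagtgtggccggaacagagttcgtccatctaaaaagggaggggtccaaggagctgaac
Utf1: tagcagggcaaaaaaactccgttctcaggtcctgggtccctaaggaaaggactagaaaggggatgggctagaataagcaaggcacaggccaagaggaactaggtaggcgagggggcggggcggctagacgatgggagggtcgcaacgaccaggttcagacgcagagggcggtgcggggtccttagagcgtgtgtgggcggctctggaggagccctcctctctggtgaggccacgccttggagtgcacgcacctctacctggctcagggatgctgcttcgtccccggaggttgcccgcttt
The 3 motifs were searched on both strands, the octamer ATGCAAAT, the Sox words CATTGTT or CTTTGTT, and the Esrrb core AAGGTCA. The motifs do not contain one another. Among 32851 promoters of the same length the octamer occurred in 1.74%, a Sox word in 9.36% and the Esrrb core in 4.72%. The octamer of Zfp42 begins 186 bases before the start, and the promoters of Utf1, Lin28a, L1td1 and Mras held none of the motifs in this window. The GC content was 57.7% for Zfp42, 62% for Utf1, 63.3% for Lin28a, 58.7% for L1td1 and 71.7% for Mras, all above the median of 52.7% over the 32851 promoters. The Mras window held 36 CpG dinucleotides and that of Lin28a 10, against a median of 7. A match describes the letters and is no measured site.

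Between 11286 and 12054 probes were detected on an A or B array and between 12994 and 13322 on a C or D array, and on the second principal component (13.7% of the variance) arrays A and B (3.58 to 15.7) were set apart from arrays C and D (-12.3 to -4.64) in each group. The Esrrb transcript stood at 23.2% of the control level with its own hairpin, 43.2% with the Sox2 hairpin and 29.3% in the dual knockdown. The Sox2 transcript stood at 68.4% with the Esrrb hairpin, 73.1% with its own and 52.5% in the dual knockdown. All 6 of the listed ES cell markers were detected in every group. Their list summed to an intensity of 71775 to 75770 on the GFP and 69012 to 78700 on the Esrrb arrays. The sum was lower than on the GFP arrays, without overlap, on the Sox2 (62809 to 65974) and dual arrays (60352.5 to 64516). Of the 14 endothelial markers, Cdh5, Kdr, Tie1, Cd34, Emcn, Erg and Tal1 were not detected on all 4 arrays of any group, and their list summed to an intensity of 3830 to 4057 on the GFP, 3303 to 3574 on the Esrrb, 3471 to 3698 on the Sox2 and 3371 to 3906 on the dual arrays. The blood marker Ptprc and 5 others of 9 were likewise not detected, and that list summed to 4770 to 5113, 4106 to 4736, 3204 to 3930 and 2792 to 3611 in the same order. The part of these lists in the Pecam1 values was not tested.

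All 8 measured genes were called lower in the dual knockdown, Lin28a only under some settings (adjusted p = 0.103 with median scaling and 0.240 by its second probe), and 3 patterns of calls were seen. Utf1, Zfp42, Fbxo15 and Jam2 fell with the Esrrb hairpin, with the Sox2 hairpin and with both. Lin28a, L1td1 and Pecam1 fell with the Sox2 hairpin and with both, but did not pass with the Esrrb hairpin. Mras fell with the Esrrb hairpin and with both, but did not pass with the Sox2 hairpin. In RNA from bulk cultures, fewer cells that express a gene and less RNA per cell cannot be told apart.

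With the Esrrb hairpin 5 of the 8 genes were lower than with GFP and 0 higher, while 11.6% of all 8248 genes were called in either direction and 5.77% lower. With the Sox2 hairpin 7 were lower and 0 higher (43.2% of all genes called, 21.5% lower), and in the dual knockdown 8 were lower (44.4% called, 22.3% lower). With median scaling, or with the mean of each array set as a replicate, the 5 genes called for the Esrrb hairpin became 3, while the calls over all genes dropped from 959 to 201 and 264. The median log2 difference of the 8 genes was -0.47, -1.24 and -1.11 in that order, against 0.00, -0.00 and -0.01 over all genes. A call is a Benjamini-Hochberg adjusted p under 0.05 over all genes in limma, log2 differences are on the normalized scale, and the 3 comparisons share the GFP arrays. Without scaling between arrays the median gene itself lay at -0.10, -0.14 and -0.14, so the changes are relative to the median gene.

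**Figure D1:**
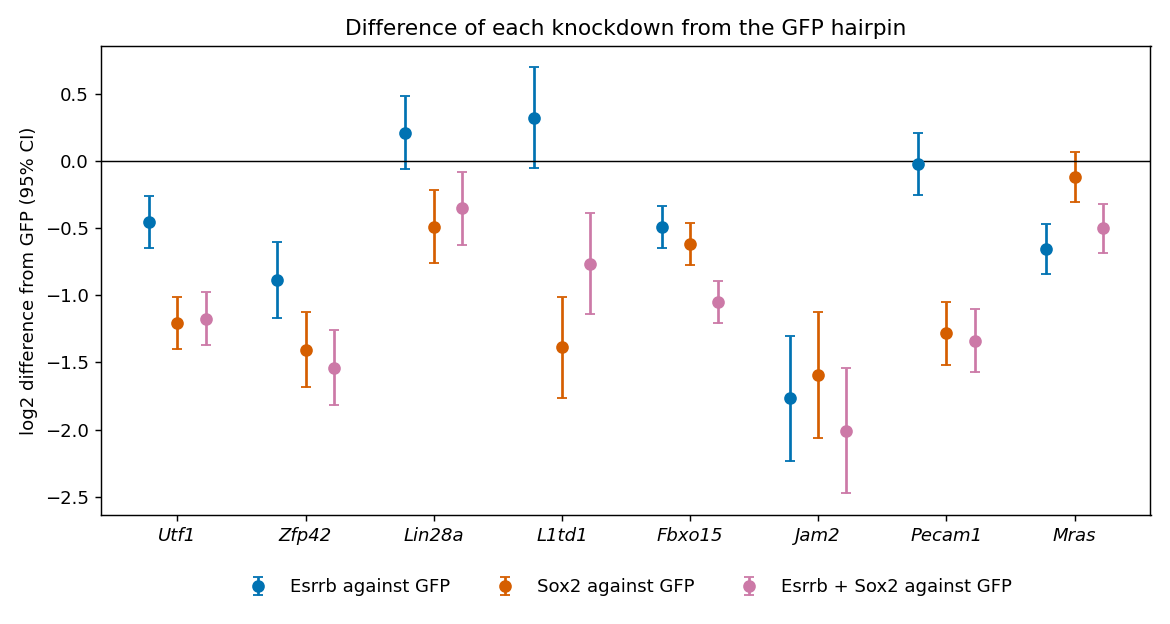
Log2 difference from the GFP arrays (vertical axis) of the 8 measured genes for the Esrrb, Sox2 and dual knockdowns, as points with 95% confidence intervals from the limma fit on 4 arrays per group. Jam2 lies lowest for the Esrrb hairpin (-1.77) and the dual knockdown (-2.01), while Lin28a, L1td1 and Pecam1 have intervals that reach 0 for the Esrrb hairpin and Mras one for the Sox2 hairpin.

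The summed markers of trophectoderm and of extraembryonic endoderm were higher on the Sox2 and dual arrays than on the GFP arrays, without overlap. The 14 trophectoderm markers summed to an intensity of 9050 to 10001 on the GFP arrays, 8543 to 9218 on the Esrrb arrays, 19899 to 24374 on the Sox2 arrays and 20857 to 27345 on the dual arrays. Of 11 tested, 3 rose and 1 fell with the Esrrb hairpin, where 5.86% of all genes were called higher, and 8 rose in each of the Sox2 and dual knockdowns, where 21.7% and 22.1% were. The 3 that rose with the Esrrb hairpin were the keratin genes Krt8 (log2 0.39) and Krt18 (0.42) and the placental gene Plac1 (0.50), which reached 2.05, 2.66 and 2.84 with the Sox2 hairpin. The transcription factor genes Elf5, Eomes and Esx1 were not detected on all 4 arrays of any group. The 13 extraembryonic endoderm markers summed to 5227 to 5864, 4757 to 5746, 8149 to 10138 and 9464 to 11250 in the same order. Gata4, Foxa2, Afp and Ttr were not detected on all 4 arrays of any group. Of 9 tested, 0 rose and 1 fell with the Esrrb hairpin, and 4 rose and 1 fell with the Sox2 hairpin. In the dual knockdown 4 rose and 0 fell, so the higher sums do not stand for the whole list. The part of both lists in the falls of the 8 genes was not tested.

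Utf1 (probe ILMN_2502226) gave background-subtracted intensities of 1578, 1704, 1635 and 1681 on GFP arrays A to D. With the Esrrb hairpin it gave 1060, 1200, 1014 and 1129, with the Sox2 hairpin 564, 690, 627 and 615, and with both 694, 695, 632 and 558. The Esrrb arrays lie between the GFP arrays and the other arrays without overlap, while the Sox2 and dual arrays overlap. Utf1 was at 72.9% of control with the Esrrb hairpin (log2 -0.46, SE 0.09, adjusted p = 0.0036), 43.3% with the Sox2 hairpin (-1.21, adjusted p = 6.45e-08) and 44.3% in the dual knockdown (-1.18, adjusted p = 7.46e-08). In the order of levels GFP, Esrrb, dual, Sox2, only the last neighbours did not differ beyond their spread (dual minus Sox2 0.03, 95% interval -0.16 to 0.23). The Esrrb call was lost with median scaling (adjusted p = 0.0806) and with the mean of each array set as a replicate (0.0813), and within the A and B arrays it was -0.44 (0.133) against -0.47 (0.0284) within C and D.

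Zfp42 (probe ILMN_2961604) had a wider spread in the control, at 3128, 3802, 4932 and 4461 on GFP arrays A to D. It read 1828, 1817, 1924 and 2441 with the Esrrb hairpin, 1254, 1158, 1377 and 1581 with the Sox2 hairpin, and 1249, 1085, 1282 and 1319 with both. All knockdown arrays lie below the lowest control array, and the Sox2 and dual arrays overlap. The gene fell to 54.1% of control with the Esrrb hairpin (log2 -0.89, SE 0.13, adjusted p = 3.21e-04), to 37.8% with the Sox2 hairpin (-1.41, adjusted p = 5.66e-07) and to 34.4% with both (-1.54, adjusted p = 1.83e-07). Zfp42 was higher with the Esrrb than with the Sox2 hairpin by 0.52 (adjusted p = 0.0049), a call lost with median scaling (0.0904) and with set means (0.0600). The dual minus Sox2 difference was -0.13 (95% interval -0.41 to 0.15). Within the A and B arrays the differences from GFP were -0.83, -1.29 and -1.40, and within C and D -0.95, -1.52 and -1.67.

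**Figure D2:**
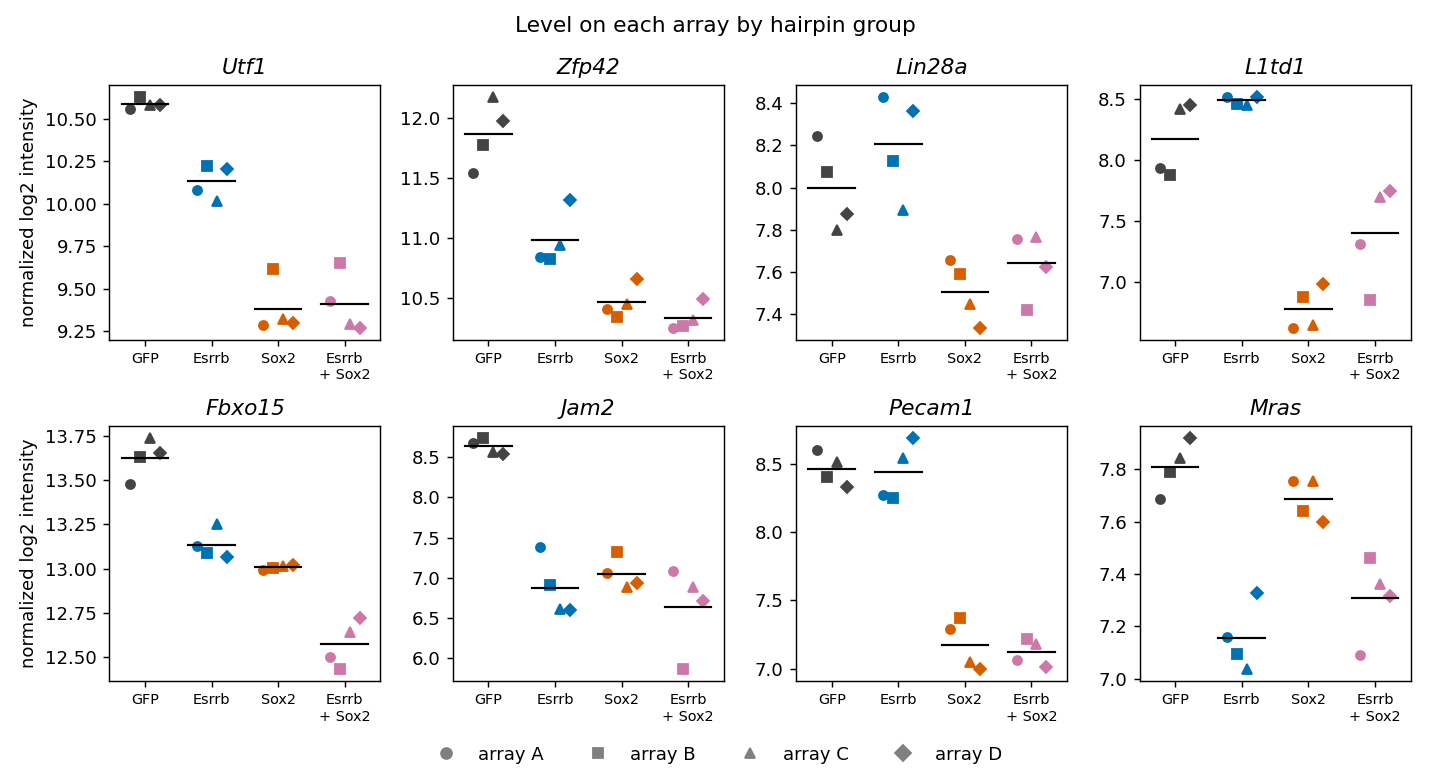
Normalized log2 level (vertical axis) of each of the 8 genes on each array, grouped by hairpin, with the array letter as the marker shape and the group mean as a bar. The Esrrb arrays of Utf1 and Zfp42 sit between the control and the Sox2 arrays, those of Pecam1 sit with the control, and those of Mras are the lowest of their panel on average.

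Of the RNA-binding genes, Lin28a had smaller differences from GFP than L1td1. Its brighter probe (ILMN_1220027) read 294, 272, 221 and 239 on GFP arrays A to D, 330, 263, 222 and 303 with the Esrrb hairpin, 173, 161, 165 and 149 with the Sox2 hairpin, and 209, 137, 212 and 170 with both. The Esrrb arrays overlap the controls, and the Sox2 and dual arrays lie below them. Lin28a fell by 0.49 on the log2 scale with the Sox2 hairpin (SE 0.13, adjusted p = 0.0057), to 71.2% of control, and was at 78.2% in the dual knockdown (-0.35, adjusted p = 0.0335). With the Esrrb hairpin the difference was 0.21 (95% interval -0.06 to 0.48, adjusted p = 0.345). The dual call did not hold without GFP array A (adjusted p = 0.109), GFP array B (0.0782), dual array B (0.101) or dual array D (0.0635). It was also lost with median scaling (0.103), without the filter on dim probes (0.0746), with set means (0.0955) and within the C and D arrays (-0.14, 0.510), while within A and B it was -0.57 (0.0235). Within C and D the Sox2 difference was -0.44 (adjusted p = 0.0507).

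The second Lin28a probe (ILMN_2992814) read 118, 116, 163 and 136 on the GFP arrays, 153, 190, 138 and 134 with the Esrrb hairpin, 67.2, 78.0, 65.8 and 84.1 with the Sox2 hairpin, and 125, 105, 106 and 93.9 with both. It fell with the Sox2 hairpin (log2 -0.62, adjusted p = 6.13e-04 over the kept probes) but was at -0.18 in the dual knockdown (95% interval -0.43 to 0.07, adjusted p = 0.240). By this probe Lin28a was higher in the dual than in the Sox2 knockdown by 0.44 (adjusted p = 0.0422), against 0.13 (adjusted p = 0.633) by the brighter probe. The probes thus gave the same call for the Sox2 hairpin and different calls for the dual knockdown.

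L1td1 (probe ILMN_2961042) read 234, 239, 347 and 362 on GFP arrays A to D, low on arrays A and B and high on C and D. It read 347, 336, 334 and 338 with the Esrrb hairpin, 78.0, 93.1, 88.3 and 113 with the Sox2 hairpin, and 152, 88.2, 202 and 187 with both. The Sox2 and dual arrays lie below all control and Esrrb arrays, and dual array B falls among the Sox2 arrays. L1td1 fell to 38.2% of control with the Sox2 hairpin (log2 -1.39, SE 0.18, adjusted p = 1.33e-05) and to 58.8% in the dual knockdown (-0.77, adjusted p = 0.0023). The Esrrb minus GFP difference of 0.32 did not pass (95% interval -0.06 to 0.70, adjusted p = 0.285), and was 0.59 (0.0930) within the A and B arrays and 0.05 (0.837) within C and D. On the normalized scale, but not in raw intensity, the Esrrb arrays did not overlap the control arrays.

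L1td1 was the only member called higher in the dual than in the Sox2 knockdown (log2 0.62, SE 0.18, adjusted p = 0.0469), with arrays that overlap. The call passed without any 1 GFP array or without dual array B, where the difference reached 0.81. It did not pass without any 1 of the 4 Esrrb arrays, the 4 Sox2 arrays or dual arrays A, C and D, where the adjusted p ran from 0.0551 to 0.138. Within the A and B arrays the difference was 0.33 (0.334) and within C and D 0.91 (0.0177).

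Fbxo15 (probe ILMN_2987637) was bright on all arrays. It read 12502, 13670, 14353 and 14088 on GFP arrays A to D, 9002, 9153, 9437 and 8207 with the Esrrb hairpin, 7626, 7454, 8081 and 8269 with the Sox2 hairpin, and 5772, 4962, 6431 and 6162 with both. The control arrays lie highest and the dual arrays lowest, both without overlap with any other group. Fbxo15 fell to 71.1% of control with the Esrrb hairpin (log2 -0.49, SE 0.07, adjusted p = 3.48e-04), to 65.2% with the Sox2 hairpin (-0.62, adjusted p = 7.18e-06) and to 48.3% with both (-1.05, adjusted p = 2.17e-08). The single knockdowns, the middle neighbours in the order of levels, differed by 0.12 (95% interval -0.03 to 0.28, adjusted p = 0.190). The dual knockdown was lower than the Esrrb knockdown by 0.56 (adjusted p = 2.63e-05) and than the Sox2 knockdown by 0.43 (adjusted p = 0.0024). The Esrrb minus GFP call was lost with median scaling (adjusted p = 0.148) and with set means (0.0523). The dual minus Sox2 call was lost with median scaling (0.471), with set means (0.147) and within either array set (0.0504 and 0.163).

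Jam2 showed the largest falls of the 8 genes with either single hairpin and with both, and has 4 probes. The brightest (ILMN_2592881) read 405, 443, 386 and 389 on GFP arrays A to D, 149, 102, 81.6 and 76.9 with the Esrrb hairpin, 110, 131, 107 and 108 with the Sox2 hairpin, and 127, 40.4, 108 and 83.0 with both. All 12 knockdown arrays lie far below the controls and overlap one another, and dual array B is the lowest. Jam2 was at 29.4% of control with the Esrrb hairpin (log2 -1.77, SE 0.22, adjusted p = 5.94e-05), 33.2% with the Sox2 hairpin (-1.59, adjusted p = 2.89e-05) and 24.9% with both (-2.01, adjusted p = 2.58e-06). None of the 3 knockdowns differed from another beyond the spread, with dual minus Esrrb at -0.24 (95% interval -0.71 to 0.23), dual minus Sox2 at -0.41 (-0.88 to 0.05) and Esrrb minus Sox2 at -0.17 (-0.64 to 0.29).

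A second Jam2 probe (ILMN_1227559), also detected on all 16 arrays, had log2 differences of -1.67 with the Esrrb hairpin, -1.54 with the Sox2 hairpin and -1.72 with both (adjusted p over the kept probes 1.85e-06, 7.74e-07 and 2.13e-07). The dimmest, ILMN_2790839 and ILMN_2790842, read 61.1 to 130 and 47.2 to 107 on the GFP arrays and passed the filter through those arrays alone, so their lower levels elsewhere add no support. The first was detected on 0 of 4 Esrrb arrays and was at least 2.39-fold lower there, and the second on 0 of 4 dual arrays and at least 2.06-fold lower. For these bounds, which were not tested, the lowest detected signal of each array stood in for the dim values.

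**Figure D3:**
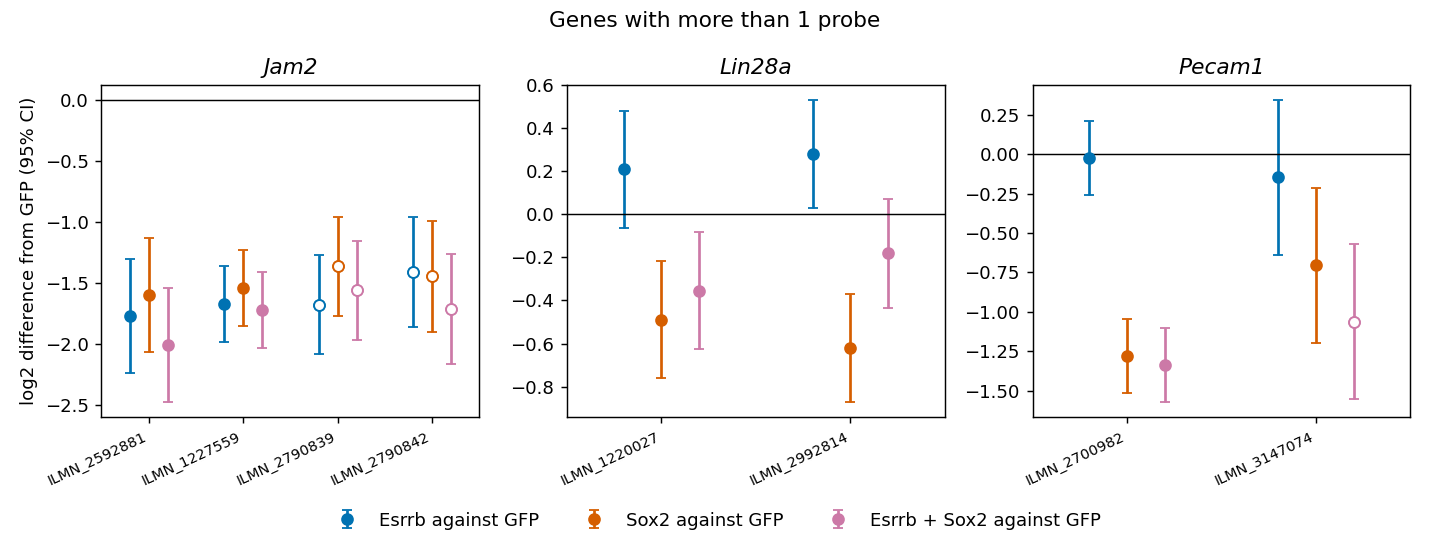
Log2 difference from GFP (vertical axis) by probe for Jam2, Lin28a and Pecam1, as points with 95% confidence intervals for the 3 knockdowns. Open points mark groups in which fewer than 4 of 4 arrays detected the probe, as for the dimmest Jam2 probes in every knockdown, and the Lin28a probes part for the dual knockdown (-0.35 and -0.18).

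Pecam1 (brighter probe ILMN_2700982) read 381, 349, 370 and 328 on GFP arrays A to D and 294, 286, 354 and 382 with the Esrrb hairpin. With the Sox2 hairpin it read 132, 137, 121 and 115, and with both 125, 117, 138 and 108. The GFP and Esrrb arrays overlap, as do the Sox2 and dual arrays, and the 2 pairs of groups lie far apart. Pecam1 fell to 41.1% of control with the Sox2 hairpin (log2 -1.28, SE 0.11, adjusted p = 2.18e-07) and to 39.5% with both (-1.34, adjusted p = 1.20e-07). The Esrrb minus GFP difference was -0.02 (95% interval -0.26 to 0.21, adjusted p = 0.929), and -0.24 within the A and B but 0.20 within the C and D arrays, neither of which passed. The dimmer probe (ILMN_3147074) gave -0.15 (adjusted p = 0.781), -0.71 (0.0233) and -1.06 (0.0016) over the kept probes, and was detected on 2 of 4 dual arrays. For comparison, Pou5f1, which encodes Oct4, had differences of -0.03 (not called), -0.90 and -0.93 in the same 3 comparisons.

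Mras (probe ILMN_1252830) read 192, 224, 229 and 247 on GFP arrays A to D, 126, 119, 115 and 138 with the Esrrb hairpin, 186, 167, 206 and 181 with the Sox2 hairpin, and 128, 141, 157 and 137 with both. Here the Sox2 arrays overlap the controls, and the Esrrb and dual arrays lie below both and overlap each other. Mras fell to 63.5% of control with the Esrrb hairpin (log2 -0.66, SE 0.09, adjusted p = 1.07e-04) and to 70.6% with both (-0.50, adjusted p = 2.19e-04). With the Sox2 hairpin the difference was -0.12 (95% interval -0.31 to 0.06, adjusted p = 0.276), and it passed without scaling between arrays (-0.25, adjusted p = 0.0334). Mras was lower in the dual than in the Sox2 knockdown by 0.38 (adjusted p = 0.0152), a call lost with median scaling (0.719), set means (0.135) and within either array set (0.177 and 0.220). The dual minus Esrrb difference of 0.15 (95% interval -0.03 to 0.34) passed without dual array A (0.23, adjusted p = 0.0425).

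The direct comparison of the single knockdowns tests whether the hairpins differ. Of the 8 genes, 5 were higher with the Esrrb than with the Sox2 hairpin and 1 lower, while 43.1% of all genes were called. L1td1 differed most (log2 1.71, adjusted p = 2.05e-06), then Pecam1 (1.26, adjusted p = 3.53e-07), Utf1 (0.75, adjusted p = 1.04e-05), Lin28a (0.70, adjusted p = 4.14e-04) and Zfp42 (0.52). Mras was lower with the Esrrb hairpin by 0.53 (adjusted p = 1.48e-04). Fbxo15 and Jam2 did not pass, though Jam2 did within the C and D arrays (-0.31, adjusted p = 0.0392).

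Adding the Sox2 hairpin to the Esrrb hairpin lowered 6 of the 8 genes and raised 0, against 40.2% of all genes called and 19.6% lower. Pecam1 (log2 -1.32, adjusted p = 2.56e-07) and L1td1 (-1.09, adjusted p = 1.76e-04) moved most, followed by Utf1 (-0.72), Zfp42 (-0.65), Lin28a (-0.56) and Fbxo15 (-0.56), while Jam2 and Mras did not pass. Lin28a was at -0.43 within the C and D arrays (adjusted p = 0.0612). Adding the Esrrb hairpin to the Sox2 hairpin called 3 of the 8, Fbxo15 and Mras lower and L1td1 higher, against 6.41% of all genes called.

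**Figure D4:**
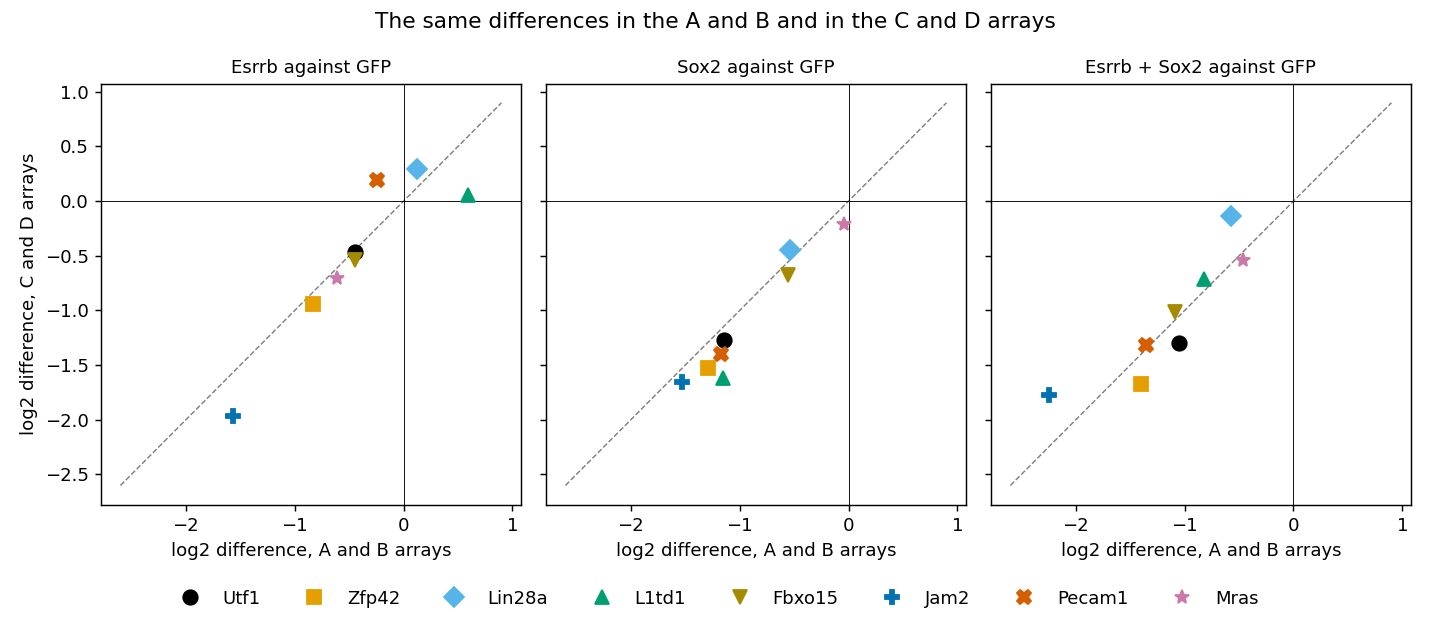
Log2 difference from GFP within the C and D arrays (vertical axis) against that within the A and B arrays (horizontal axis) for the 8 genes in each knockdown, with a dashed line of equality. The points of Pecam1 and L1td1 stand off the line for the Esrrb hairpin (-0.24 and 0.20, 0.59 and 0.05), and those of Lin28a and Jam2 for the dual knockdown (-0.57 and -0.14, -2.24 and -1.77).

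The interaction, the dual difference minus the sum of the single differences, was positive and called for 2 of the 8 genes, with 2.89% of all genes called. Jam2 fell by 2.01 on the log2 scale in the dual knockdown where the single knockdowns sum to -3.36, an interaction of 1.35 (SE 0.31, adjusted p = 0.0268). That sum would place Jam2 at a log2 level of 5.28, below the mean lowest detected signal of 5.41 on the dual arrays. Zfp42 fell by 1.54 where the single knockdowns sum to -2.29 (interaction 0.75, SE 0.19, adjusted p = 0.0411), and here the additive level of 9.58 lies well above that signal. Utf1 had an interaction of 0.49 (SE 0.13, adjusted p = 0.0572), which passed with the array letter as a block (adjusted p = 0.0164) but not with set means (0.400) or median scaling (0.761). The other 5 lay between -0.07 (Lin28a) and 0.30 (L1td1), and Fbxo15, at 0.06 (95% interval -0.16 to 0.28), had a dual fall of 1.05 beside a sum of -1.11.

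Both called interactions lie near the threshold, and leaving out single arrays moved their sizes little, from 0.65 to 0.87 for Zfp42 and from 1.199 to 1.61 for Jam2. That of Zfp42 passed only without GFP array A, Esrrb array D or Sox2 array D, and without any 1 of the other 13 arrays its adjusted p ran from 0.0520 to 0.0847. That of Jam2 did not pass without GFP array B (0.0586), Esrrb array C (0.0629), Esrrb array D (0.0559), Sox2 array C (0.0590), Sox2 array D (0.0531), or dual array A (0.0544), C (0.0529) or D (0.0506). The Utf1 interaction passed without Sox2 array B (0.0234) or dual array D (0.0482). Within the A and B arrays Jam2 was at 0.85 (adjusted p = 0.599) and within C and D at 1.85 (0.0033), and Zfp42 at 0.71 (0.132) and 0.79 (0.148). Over the kept probes the adjusted p of the Jam2 interaction was 0.0292 for the brightest probe and 8.08e-04 for ILMN_1227559. The latter had a control level of 7.97 and single differences of -1.67 and -1.54. Their sum would also place it below the mean lowest detected signal of 5.41. An additive fall could thus not have been read in full as detected signal by either probe, and the smaller p adds no support. Both probes were detected on 4 of 4 dual arrays, at mean log2 levels of 6.63 (brightest) and 6.25 (ILMN_1227559). The part of the detection limit in their interactions was not tested. The dimmest probes, at or near the detection limit in each knockdown, cannot show a further fall and say nothing of the interaction.

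**Figure D5:**
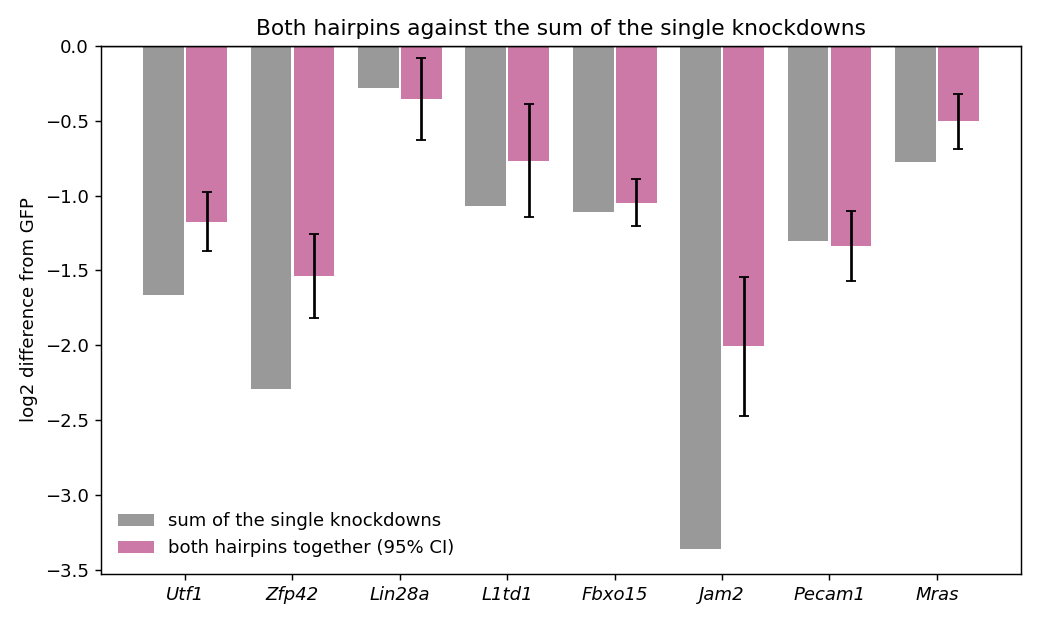
Observed log2 difference of the dual knockdown from GFP and the sum of the 2 single knockdowns' differences for each of the 8 genes. The bars of Jam2 (-2.01 and -3.36), Zfp42 (-1.54 and -2.29) and Utf1 (-1.18 and -1.66) differ most, while those of Fbxo15, Pecam1 and Lin28a lie close together.

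Genes that work with the members were read from 6 lists. Over all genes, 5.77% were called lower with the Esrrb hairpin, 21.5% with the Sox2 hairpin and 22.3% with both. No list was tested against these shares. Of 14 tested pluripotency factors and ES cell signalling genes, 8 were lower with the Esrrb hairpin, 11 with the Sox2 hairpin and 12 with both, and 0 were higher (medians -0.42, -0.95 and -1.01). Nanog differed by -0.52, -1.0 and -1.16, the Akt coactivator gene Tcl1 by -1.45, -2.27 and -2.27, the growth factor gene Fgf4 by -0.89, -1.62 and -2.02, and the nuclear receptor gene Nr5a2 by -0.87, -1.14 and -1.49. Of 10 tested genes of threonine, glycine and one-carbon metabolism, which Tdh supplies, 2, 7 and 7 were lower and 0 higher (medians -0.14, -0.37 and -0.40). Mthfd2, a mitochondrial folate enzyme gene, fell by 0.48, 0.90 and 1.22 on the log2 scale. Its cytosolic relative Mthfd1 fell by 0.23, 0.40 and 0.59, and the serine hydroxymethyltransferase gene Shmt1 was at -0.14 (not called), -0.82 and -0.69.

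Of 9 tested genes of the Lin28 and let-7 axis, 0 were lower and 1 higher with the Esrrb hairpin, 2 and 1 with the Sox2 hairpin, and 1 and 3 with both (medians 0.02, -0.11 and -0.00). Beside these counts and those below, 5.77%, 21.5% and 22.3% of all genes were lower and 5.86%, 21.7% and 22.1% higher. Igf2bp3, an RNA-binding protein gene targeted by let-7, rose by 0.34, 0.32 and 0.50, while in the dual knockdown the Microprocessor gene Dgcr8 rose by 0.35 and the uridylyltransferase gene Tut7 by 0.30. Of 8 tested SCF ligase genes, 0, 1 and 1 were lower and 0 higher, the 1 being the F-box gene Skp2 (-0.09, not called, -0.26 and -0.36). Of 13 tested junction and adhesion genes, 1 was lower in each knockdown and 1, 5 and 4 were higher (medians 0.05, 0.18 and 0.20). The claudin gene Cldn6 rose by 0.30, 0.74 and 1.12 and Cldn4 was at 0.27 (not called), 1.06 and 1.22, while Icam1, a gene of the same superfamily as Jam2 and Pecam1, fell by 0.80, 0.49 and 0.89 on the log2 scale. Of 10 tested genes of the Ras family and the Shoc2 complex, 1 was lower in each knockdown and 0, 1 and 3 were higher (medians -0.05, 0.16 and 0.18). Eras, a Ras gene of ES cells, was the lower one (-1.25, -1.43 and -2.13), and Rras was at 0.05 (not called), 0.73 and 0.69.

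For each member the 2 other genes with the most similar profile were found by the root-mean-square (RMS) distance between the 4 group means, each centred on the gene's own mean. They were Hsd17b1 (RMS 0.041) and Bdh2 (0.060) for Utf1, Septin1 (0.063) and Cobl (0.072) for Zfp42, and Rbm26 (0.0089) and Caprin1 (0.014) for Lin28a. They were Zfp985 (0.055) and Ccno (0.077) for L1td1, Triml1 (0.048) and Slc4a1 (0.050) for Fbxo15, and Manba (0.180) and Inhbb (0.195) for Jam2. For Pecam1 they were Pipox (0.025) and Tekt1 (0.075), and for Mras Rbm47 (0.055) and Arih2 (0.056). Within the group Utf1 and Zfp42 were each other's nearest members (RMS 0.166), while Jam2 lay furthest from its nearest, Zfp42 (0.331). The small distances of Lin28a accompany small differences between its group means, and the distances are over 4 groups of arrays that all genes share.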

How the data were processed

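The authors deposited 2 tables. The first holds linear intensities per probe and array, per the file headers without normalization, from -33.2 to 55740, with 20.9 to 25.2% of an array's probes below 0, so a background had been subtracted. Each comes with a deposited detection score, called a p-value per the file headers, which rises with the intensity (lowest rank correlation 0.935) and was read as 1 minus the detection p. The second table gives 1 ratio per probe and group, processed by the authors in a way not given in the sources used here, and served as an alternative only. Neither the scanner software nor its background step is named there.

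Of 25697 probes, 23978 had a gene symbol in the array annotation and 1719 were unnamed. Probes with several symbols were not counted apart. Background estimation from the detection p, quantile normalization of the 16 arrays and log2 after an offset of 16 were done by neqc (limma 3.58.1, R 4.3.3). Probes with a detection p below 0.01 throughout 1 group's 4 arrays or more were kept, and the brightest stood for its gene. A limma model (lmFit, eBayes) over the 16 arrays gave the group means, with 7 contrasts and Benjamini-Hochberg adjustment over 8248 genes, or over 11591 probes where single probes are given. The fit was run on simulated data with independent noise on each array. Those data lack the links between arrays described below, so they do not test the p-values under such links. The number of arrays limits the precision.

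Arrays of the same letter deviated together from their group means (correlation between 0.143 and 0.446 for every pair), a link found in the data and not stated in the labels. Arrays A and B also part from C and D, so these correlations cannot tell a link by letter from a link by array set. The model reported has no term for either, so its p-values leave such a link out. Alternatives changed the scaling, the filter, the offset, the probe choice, a block for letter or array set, the sets used and each array in turn. The genes named besides the members are Esrrb, Sox2, Pou5f1, Nanog, the closest 2 profiles per member, and up to 3 called genes per list with the largest dual difference. Members, lists and this rule were chosen with earlier results of these data known. Promoter sequences are RefSeq's.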

Additional observations from a re-analysis of the deposited data

Results flagged for a closer look

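Single arrays stood apart in 3 of the 52 groups of 4 arrays examined, where chance picks out about 1 in 20. Utf1 on Sox2 array B had a normalized log2 level of 9.62, above the other 3 Sox2 arrays. The Jam2 probe ILMN_1227559 on dual array C was at 5.79, below the other 3 dual arrays, and the Pecam1 probe ILMN_3147074 on Esrrb array D was at 6.13, below the other 3 Esrrb arrays. The effect of the Esrrb hairpin differed between cells with and without the Sox2 hairpin for Zfp42 (interaction 0.75 on the log2 scale, SE 0.19, adjusted p = 0.0411 in limma) and for Jam2 (1.35, SE 0.31, adjusted p = 0.0268). Over the other processing settings, apart from leaving out single arrays, the adjusted p of the Zfp42 interaction ran from 0.0036 to 0.779 and that of Jam2 from 1.96e-04 to 0.599, both positive in each.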

How the results depend on the processing

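The counts of called members moved by over 1.5 times in 3 comparisons. For Esrrb against GFP the 5 became 3 with median scaling and 3 with the mean of each array set as a replicate, for the dual against the Sox2 knockdown the 3 became 0 with median scaling, 0 in the A and B arrays, 1 in the C and D arrays and 0 with set means, and for the interaction the 2 became 0 with median scaling, 0 without the filter, 0 in the A and B arrays, 1 in the C and D arrays and 0 with set means, or 0 to 2 leaving out 1 array. The cause was not tested, beyond the fewer arrays of the subsets and set means. With the array letter as a replicate block the Utf1 interaction of 0.49 passed (adjusted p = 0.0164), and no other member call changed. Differences that changed sign were all uncalled in both settings: Pecam1 for Esrrb against GFP at 0.20 in the C and D arrays (-0.11 to 0.040 leaving out 1 array), Jam2 for dual against Esrrb at 0.19 in C and D (-0.39 to 0.017), and, for dual against Sox2, Utf1 at -0.028 in C and D (-0.050 to 0.11), Lin28a at -0.035 in A and B, and Pecam1 at 0.078 in C and D (-0.12 to 0.0088). Of the interactions, Lin28a was at 0.025 without scaling, 0.044 with the mean of its probes and 0.010 in C and D (-0.18 to 0.0022), Pecam1 at 0.074 without scaling and 0.051 in A and B (-0.10 to 0.051), L1td1 at -0.25 and Fbxo15 at -0.082 in A and B. Without scaling the median interaction over all genes was 0.12. Lin28a was called higher in the dual than in the Sox2 knockdown with the mean of its probes (0.29, adjusted p = 0.0424). L1td1 in that comparison also did not pass without scaling (0.0833) or without the filter (0.111). Over all genes, the calls ranged over the alternatives other than leaving out arrays from 201 to 1309 for Esrrb against GFP (959 as reported), 1623 to 4079 for Sox2 (3565), 1844 to 4171 for dual (3663), 1289 to 3796 for dual against Esrrb (3312), 21 to 813 for dual against Sox2 (529), 1513 to 4028 for Esrrb against Sox2 (3552) and 9 to 432 for the interaction (238), the lowest with median scaling or set means. The authors' deposited ratios, read at the brightest probe, gave the same direction for all differences from GFP but 1. That was the uncalled Pecam1 difference with the Esrrb hairpin, at 0.02 in their ratios and -0.02 here. Signals near background limit Jam2 and the second Pecam1 probe in the knockdowns.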

Other observations

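The genes next to the 8 measured members on their chromosomes were looked up after the members' values had been seen. Of 16 neighbours 10 were tested, and 1 was lower and 1 higher with the Esrrb hairpin, 2 and 1 with the Sox2 hairpin, and 3 and 2 in the dual knockdown, beside 11.6%, 43.2% and 44.4% of all genes called. Timm21, a mitochondrial import gene beside Fbxo15, rose by 0.45, 0.71 and 0.80 on the log2 scale in limma while Fbxo15 fell, and Cyb5a on the other side was at 0.03 (not called), -0.38 and -0.42. Kndc1, beside Utf1, was at -0.27, -0.14 (not called) and -0.21. Patj, a polarity gene beside L1td1, rose by 0.65 in the dual knockdown alone among the 3 comparisons with GFP, and Esyt3, beside Mras, was at -0.06 (not called), -0.27 and -0.27. The tested neighbours of Lin28a, Jam2 and Pecam1 (Dhdds, Mrpl39, Atp5j and Tex2) did not pass in any of the 3 comparisons.

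Among the endothelial markers that were detected, Flt1, a VEGF receptor gene, rose by 0.81, 0.94 and 1.89 in the Esrrb, Sox2 and dual knockdowns. The guidance receptor gene Robo4 differed by -0.41, -1.55 and -1.65, and Vwf by -0.57, -0.93 and -1.02, all called. The blood marker Coro1a, an actin-binding protein gene, rose by 0.96 with the Esrrb hairpin and by 0.33 in each of the others, with an interaction of -0.96 (adjusted p = 0.0024), while the blood marker Laptm5 was at -0.16 (not called), -0.33 and -0.55.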
